A study of Mus musculus with 4 samples.

Results

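Heat shock proteins and chaperones were examined in skeletal muscle of mice lacking corticotropin-releasing factor receptor 2 (Crhr2), a receptor for urocortin peptides. The members were the array features, called probe sets, that the platform annotation assigned to a single gene whose symbol begins with Hspa, Hspb, Hspd, Hspe, Hsph, Hsp90, Dnaja, Dnajb, Dnajc or Cct and a number, plus Cryab. They comprised 78 probe sets for 55 genes, out of 8251 genes named by a single-symbol probe set and 12422 non-control probe sets on the array. Both genotypes, Crhr2-/- (KO) and Crhr2+/+ (WT), were untreated male littermates of 6.5 months on a mixed C57BL/6x129 background, fed chow. RNA of the combined gastrocnemius and soleus muscle was pooled from 2 mice per array, and 2 such pools per genotype were each hybridised to 1 Affymetrix U74Av2 array. The groups were read from the sample titles, because the genotype and tissue fields of the labels hold each other's content. With 2 pools per genotype, p-values measure the spread between pools and not between single mice, and an exact permutation test of 2 arrays against 2 cannot go below p = 0.333.

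Chaperones bind unfolded or partly folded proteins and keep them from clumping until they fold, are transported or are degraded. Small heat shock proteins hold unfolding proteins without using ATP, while HSP70, steered by J-domain proteins, and HSP90 work in ATP-driven cycles, and the barrel-shaped chaperonins enclose their clients. In contracting muscle they guard the myofibrils, and many of them are induced by heat or exercise through heat shock factors that bind repeated GAA and TTC units in promoters. The chaperones of the endoplasmic reticulum are induced instead by unfolded proteins in that compartment, partly through the ER stress response element.

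The deposited values are linear signal intensities in arbitrary units, already scaled between arrays. Array medians lay between 67.6 and 71.2, and the correlation of member genes between arrays (0.947 to 0.976) was of the order of that over all probe sets (0.960 to 0.966), both taken across genes, which are not replicates. The brighter Crhr2 probe set read 154 and 192 in the WT pools and 100.4 and 75.1 in the KO pools (50.7% of the WT mean, log2 fold change -0.88 ± 0.25, SE, limma adjusted p = 0.803), and the dimmer one did not separate the genotypes (log2 fold change -0.03). Whether these probe sets lie inside the deleted stretch is not known, so they check the labels only in part. The muscle label was borne out by Acta1, skeletal alpha-actin, which read between 19099 and 21770, and by Ckm, muscle creatine kinase, between 5569 and 6133. Markers of exocrine pancreas were higher in KO for 12 of 12 genes (summed level 1815 to 1877 in WT, 4167 to 13742 in KO), and liver markers were lower for 13 of 15 (3723 to 3990 in WT, 2218 to 2221 in KO). None of the pancreas or liver markers was listed at 0 (the lowest values were 4.00 and 1.28). For actin, the control signal from the 3' end over that from the 5' end, which reflects how intact the RNA was, stood at 0.624 and 0.686 in the WT pools and 0.729 and 0.866 in the KO pools.

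Promoter sequences are shown for 4 members whose highest reading came from WT replicate 1, chosen after their values were seen. RefSeq windows of 300 bases around the start site (build GRCm38.p6) were matched for 46 of the 55 genes, and those of Cct4, Cryab, Dnajc11, Dnajc2, Dnajc5, Hsp90aa1, Hspa8, Hspa9 and Hspb2 were not matched. A heat shock element of 2 units (GAANNTTC or TTCNNGAA) was found in the windows of 14 of 46 members and of 8 of the 10 matched heat-inducible members, against 17.0% of all genes. A run of 3 units (GAANNTTCNNGAA or TTCNNGAANNTTC, each of which holds the shorter element) was found for Dnajb6, Hspd1, Hspe1 and Hsph1, against 0.662% of all genes. The ER stress response element (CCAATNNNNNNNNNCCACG or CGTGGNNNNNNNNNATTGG) was found for Dnajc3, Hsp90b1 and Hspa5, against 0.137% of all genes. Each form was searched on both strands, and a match is a description of letters, not of binding. The stretches printed end at the base before the start site, run 5′ to 3′ on the strand of the gene and carry the element in capitals. They are Hspa1a (chr17:34972157-34972406, minus strand, 2 units), Hspe1 (chr1:55087898-55088147, plus strand, 2 overlapping runs of 3 units), Hspa5 (chr2:34771840-34772089, plus strand, ER stress response element) and Hsp90b1 (chr10:86705445-86705694, minus strand, 2 ER stress response elements).
Hspa1a: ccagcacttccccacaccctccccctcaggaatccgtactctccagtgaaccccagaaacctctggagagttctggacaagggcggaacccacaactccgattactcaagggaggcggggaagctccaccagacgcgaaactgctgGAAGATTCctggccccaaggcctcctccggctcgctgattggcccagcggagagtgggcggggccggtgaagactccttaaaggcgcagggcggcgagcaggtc
Hspe1: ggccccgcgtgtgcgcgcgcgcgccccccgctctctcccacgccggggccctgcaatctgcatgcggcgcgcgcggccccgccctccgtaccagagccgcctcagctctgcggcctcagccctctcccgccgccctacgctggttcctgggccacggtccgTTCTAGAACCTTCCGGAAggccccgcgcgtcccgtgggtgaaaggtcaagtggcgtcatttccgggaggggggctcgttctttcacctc
Hspa5: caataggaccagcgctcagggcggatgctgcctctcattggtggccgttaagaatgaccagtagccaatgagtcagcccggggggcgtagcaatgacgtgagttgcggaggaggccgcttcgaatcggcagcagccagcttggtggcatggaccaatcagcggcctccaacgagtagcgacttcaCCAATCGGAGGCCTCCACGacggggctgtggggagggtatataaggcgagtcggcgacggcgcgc
Hsp90b1: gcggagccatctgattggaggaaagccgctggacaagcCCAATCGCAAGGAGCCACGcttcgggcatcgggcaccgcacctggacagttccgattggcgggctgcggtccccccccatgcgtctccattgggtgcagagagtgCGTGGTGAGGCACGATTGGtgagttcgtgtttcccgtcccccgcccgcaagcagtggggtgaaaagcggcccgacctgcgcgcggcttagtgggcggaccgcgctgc
The windows of Hspa1a and Hspa1b were identical at 296 of 300 positions, both elements included. The Hspd1 gene lies next to Hspe1 on the opposite strand. A window of Hspd1 overlapped that of Hspe1 by 285 bases and holds the same heat shock elements. Another window of Hspd1, at a different start site, overlapped that of Hspe1 by 4 bases only, outside these elements.

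Messenger RNA levels of chaperones in resting muscle showed no difference between KO and WT that passed the test. The limma fit of log2(intensity + 14), where 14 is a pseudocount of 20% of the table's median, called 0 of the 78 member probe sets after Benjamini-Hochberg adjustment over all 12422 probe sets, as it called 0 of those (0%). At an unadjusted p under 0.05, limma gave 1 member higher in KO, a dim Dnajc3 probe set, against 2.57% of all probe sets, and 1 lower, an Hspb2 probe set, against 2.86%. Both KO arrays lay above both WT arrays for 10 member probe sets (12.8%, against 17% of all) and below them for 9 (11.5%, against 17.6% of all). The members past the size rule (at least 1.5-fold, genotypes not overlapping, and a mean over the arrays above the 68.7 of the median probe set) numbered 1, another Dnajc3 probe set (1.28%, against 1.89% of all). With all 4 arrays, these shares were below those of the whole array. Without KO replicate 1, 5 members (6.41%, against 6.69% of all probe sets) were at an unadjusted p under 0.05 and 2 passed the size rule (2.56%, against 4.19%). Without KO replicate 2 these counts were 6 (7.69%, against 5.4%) and 3 (3.85%, against 3.16%). Without WT replicate 1 the size rule gave 2 (2.56%, against 3.8%), and without WT replicate 2 the unadjusted p gave 1 (1.28%, against 5.35%). Because the tissue was measured in bulk, fewer cells of a type and less RNA per cell cannot be told apart in any of these values.

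With each gene represented by its probe set of highest mean, 22 of the 55 genes had a positive and 33 a negative log2 fold change (KO minus WT), with a median of -0.02 (0.040 without WT replicate 1). Over all 8251 genes the median was 0.00. The median size of the genotype difference without its sign was 0.13 for the chaperones and 0.18 for all genes. Between the 2 pools of 1 genotype the median difference was 0.17 in WT and 0.15 in KO, against 0.23 and 0.24 for all genes. The pool difference is between single arrays and the genotype difference between means of 2 arrays. Single arrays spread more than means, so the 2 sizes are not like measures. For 31 of the 55 genes (56.4%) the whole 95% interval of the difference lay within 1.5-fold in either direction, which held for 27.6% of all genes. Restricted to genes whose mean was above the median probe set, the counts were 31 of 46 (67.4%) against 43.4%. An interval within 2-fold was reached by 44 of the 55 (80.0%, against 63.7% of all genes). Without WT replicate 1 or WT replicate 2 the count within 1.5-fold was 20 or 18. No share over all genes was taken beside the counts with a WT replicate left out. The intervals rest on 2 pools per genotype and bound the difference without showing that the genotypes are alike.

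**Figure D1:**
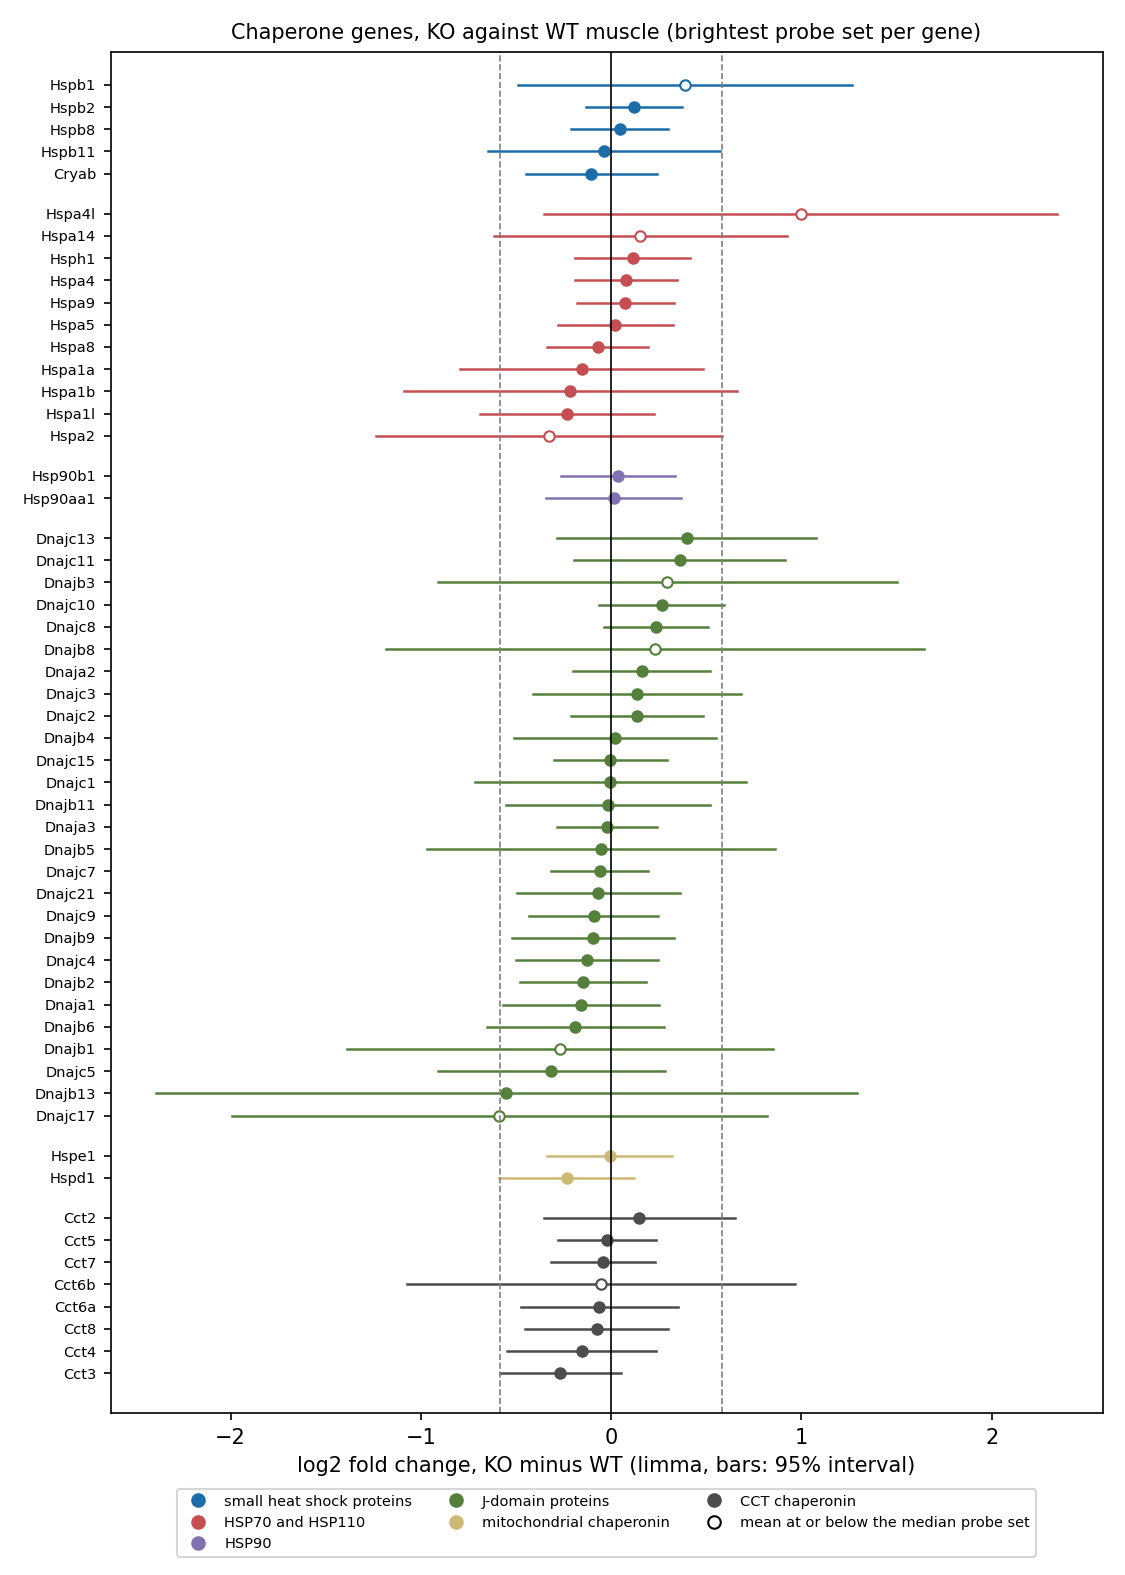
Log2 fold change (KO minus WT, x axis) of each of the 55 chaperone genes (1 row per gene, brightest probe set), with the 95% interval from limma as a bar; colours mark the classes, open circles mark genes whose mean is at or below that of the median probe set, and dashed lines mark 1.5-fold. Every interval shown includes 0, and the widest intervals belong to dim probe sets or to probe sets with discordant pools such as Dnajb13.

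Among the small heat shock proteins, 3 of 5 genes had a positive log2 fold change (median 0.04). Hspb8, a partner of the co-chaperone Bag3 in clearing damaged filament proteins, read 5606 and 5324 in the WT pools and 5498 and 5771 in the KO pools. The genotypes overlapped and the log2 fold change was 0.04 ± 0.10 (SE, 95% interval -0.21 to 0.30). Cryab, alphaB-crystallin, which protects desmin and the Z-disc, read 762 and 696 in the WT pools and 757 and 604 in the KO pools, an overlapping range (-0.10 ± 0.14). Hspb1, the actin-stabilising HSP27 homologue, read 19.3 and 7.35 in the WT pools and 15.2 and 27.8 in the KO pools on its only probe set, far below the level of the median probe set (0.39 ± 0.36). Hspb11, also a part of the intraflagellar transport machinery, stood at -0.04 ± 0.25. The second probe sets of Hspb8 (-0.08 ± 0.29) and Cryab (0.02 ± 0.23) overlapped as well, but at far lower levels. That of Hspb8 read 63.7 to 80.3 over the arrays, near the median probe set. That of Cryab read 8.40 to 11.6, far below it, and says little about Cryab.

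Hspb2, a muscle-enriched small heat shock protein that lies beside Cryab on chromosome 9, was measured by probe sets that disagreed. The set 103214_at read 1103 and 1121 in the WT pools and 831 and 910 in the KO pools, so that both KO pools were lower (means 1112 ± 13.2 and 870 ± 55.6, SD, n = 2). Its log2 fold change was -0.35 ± 0.10, with a 95% interval of -0.60 to -0.10 and a limma adjusted p of 0.803. The set 103215_g_at read 3193 and 3548 in the WT pools and 3648 and 3672 in the KO pools, so that both KO pools were higher (0.12 ± 0.10, interval -0.13 to 0.37). No direction can therefore be given for Hspb2, although neither set was dim and neither let the genotypes overlap.

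The HSP70 and HSP110 genes were 6 with a positive and 5 with a negative log2 fold change (median 0.02, and -0.042 to 0.075 with 1 array left out). Hspa8, the constitutive cytosolic HSP70, read 2522 and 2202 in the WT pools and 2287 and 2202 in the KO pools, with a difference of -0.07 ± 0.11 and an interval of -0.34 to 0.20. Hspa9, the mitochondrial HSP70 that pulls imported proteins into the matrix, read 1959 and 2106 in the WT pools and 2041 and 2243 in the KO pools (0.07 ± 0.11). Hspa5, the HSP70 of the endoplasmic reticulum known as BiP, read 1050 and 874 in the WT pools and 996 and 950 in the KO pools (0.02 ± 0.12). In all 3 the genotypes overlapped and the interval stayed within 1.5-fold. Hsph1, an HSP110 that recharges HSP70 with ATP, read 728 and 774 in the WT pools and 885 and 748 in the KO pools (0.11 ± 0.12). Hspa4, a related exchange factor, was measured by 5 probe sets with log2 fold changes from -0.08 to 0.28, and its brightest set had both KO pools above both WT pools by 0.08 ± 0.11.

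The stress-inducible pair Hspa1a and Hspa1b, the genes for HSP72 on chromosome 17, did not separate the genotypes. Hspa1a read 153 and 106 in the WT pools and 104 and 123 in the KO pools (-0.16 ± 0.26), and Hspa1b read 100.2 and 57.4 in the WT pools and 55.1 and 73.8 in the KO pools (-0.21 ± 0.36). In both genes WT replicate 1 was the highest array and WT replicate 2 and KO replicate 1 were the lowest. As near-identical copies, both can be detected by the same probes and count as uncertain singly. Their neighbour Hspa1l, a testis-enriched relative, read 219 and 291 in the WT pools and 220 and 206 in the KO pools (-0.23 ± 0.19). Hspa4l, an HSP110 relative, had the greatest log2 fold change of the 55 genes, 0.997 ± 0.56, from readings of 14.3 and 61.4 in the WT pools and 57.4 and 104.8 in the KO pools. These overlapped and the mean was below that of the median probe set. Hspa2 (-0.32 ± 0.37) and Hspa14 (0.15 ± 0.32), a ribosome-bound HSP70, were dim as well.

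Of the HSP90 genes, Hsp90aa1, the inducible cytosolic form, read 513 and 410 in the WT pools and 453 and 474 in the KO pools (0.01 ± 0.15). Hsp90b1, the endoplasmic reticulum form known as GRP94, read 590 and 510 in the WT pools and 561 and 565 in the KO pools (0.04 ± 0.12). In each, the KO pools fell between the WT pools, and the interval lay within 1.5-fold. A dim second set for Hsp90aa1 read 60.1 and 52.6 in the WT pools and 28.0 and 49.9 in the KO pools (-0.44 ± 0.37). Of the 3 members with an ER stress response element, Hspa5 and Hsp90b1 were highest in WT replicate 1, for which their promoters were chosen, and Dnajc3 was highest in KO replicate 2 on its brightest set. Over all 7 members of that compartment the median log2 fold change was 0.02, with 4 genes positive and 3 negative, and it was 0.14 without WT replicate 1.

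J-domain proteins deliver clients to HSP70 and trigger its ATP cycle. Of 27 genes, 10 had a positive and 17 a negative log2 fold change (median -0.02). The genotypes did not overlap for 6 of the 27 with KO above, all of them Dnajc, and for 2 with KO below, Dnajb2 (-0.15 ± 0.14) and Dnajc4 (-0.13 ± 0.15), against 16.5% and 18.2% of all genes. The 14 Dnajc genes as a group were 6 positive and 8 negative with a median of 0.00, and the 10 Dnajb genes were 3 positive and 7 negative with a median of -0.07.

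Dnajc8, a nuclear splicing-associated J protein, had the smallest unadjusted p of the class on a brightest probe set. It read 607 and 677 in the WT pools and 772 and 743 in the KO pools (means 642 ± 49.2 and 757 ± 20.1, SD, n = 2), both KO pools being higher (0.24 ± 0.11, interval -0.04 to 0.51). Its second set read 402 and 490 in the WT pools and 568 and 428 in the KO pools and overlapped (0.15 ± 0.18). Dnajc10, the disulfide reductase ERdj5 of the endoplasmic reticulum, read 299 and 282 in the WT pools and 364 and 341 in the KO pools, again higher in both KO pools (0.27 ± 0.14). Dnajc11, a part of the complex that shapes mitochondrial cristae, read 96.9 and 92.1 in the WT pools and 124 and 127 in the KO pools (0.36 ± 0.23). Dnajc13, an endosomal sorting protein, read 87.4 and 63.9 in the WT pools and 98.8 and 107 in the KO pools (0.40 ± 0.28). For all 4 genes limma gave an adjusted p of 0.908 and an interval that included 0. The other genes with both KO pools above were Dnajc2 (0.14 ± 0.14), a ribosome-associated J protein whose second set stood at -0.15 ± 0.20, and Dnajc3.

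Dnajc3, the P58IPK inhibitor of the stress kinase PERK, was measured by 4 probe sets that did not point 1 way. The brightest, 94343_at, read 121 and 103 in the WT pools and 124 and 124 in the KO pools (0.14 ± 0.22). The set 102414_i_at read 108 and 96.6 in the WT pools and 89.2 and 30.4 in the KO pools, which passed the size rule in the opposite direction (-0.78 ± 0.45). That value rested on KO replicate 2, without which it was -0.17. The set 161868_r_at read 5.28 and 2.25 in the WT pools and 15.4 and 23.9 in the KO pools (0.92 ± 0.26, limma adjusted p = 0.803), far below the median probe set, and 102415_r_at stood at 0.10 ± 0.33. The letter r in 161868_r_at and 102415_r_at marks probe sets for which Affymetrix relaxed its probe selection rules. No direction can be given for Dnajc3 from these sets.

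The other J-domain proteins included the main cytosolic partners of HSP70. Dnaja1 stood at -0.16 ± 0.17 and Dnaja2 at 0.16 ± 0.15. Dnaja3, the mitochondrial form known as Tid1, which supports acetylcholine receptor clustering at the neuromuscular junction, read 1101 and 1003 in the WT pools and 1076 and 996 in the KO pools (-0.02 ± 0.11). Dnajb1, the heat-inducible HSP40, was dim (-0.27 ± 0.46). Dnajb6, mutated in a human limb-girdle muscular dystrophy, stood at -0.19 ± 0.19 and 0.08 ± 0.17 on its 2 probe sets. Dnajb5 and Dnajc5 differed more between the KO pools than between genotypes. Dnajb5 read 334 and 378 in the WT pools and 218 and 533 in the KO pools (-0.05 ± 0.38), and Dnajc5, the cysteine string protein of synaptic vesicles, read 216 and 234 in the WT pools and 140 and 226 in the KO pools (-0.32 ± 0.25). The testis-enriched Dnajb13 (-0.55 ± 0.76) had its highest array 8.12 times its lowest. Dnajb4 stood at 0.02 ± 0.22, and the dim Dnajb3 (0.30 ± 0.50), Dnajb8 (0.23 ± 0.58) and Dnajc17 (-0.59 ± 0.58) had wide intervals. The J proteins Dnajc7, Dnajc9, Dnajc15 and Dnajc21 and the endoplasmic reticulum forms Dnajb9, Dnajb11 and Dnajc1 all lay between -0.10 and 0.00 on their brightest sets.

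**Figure D2:**
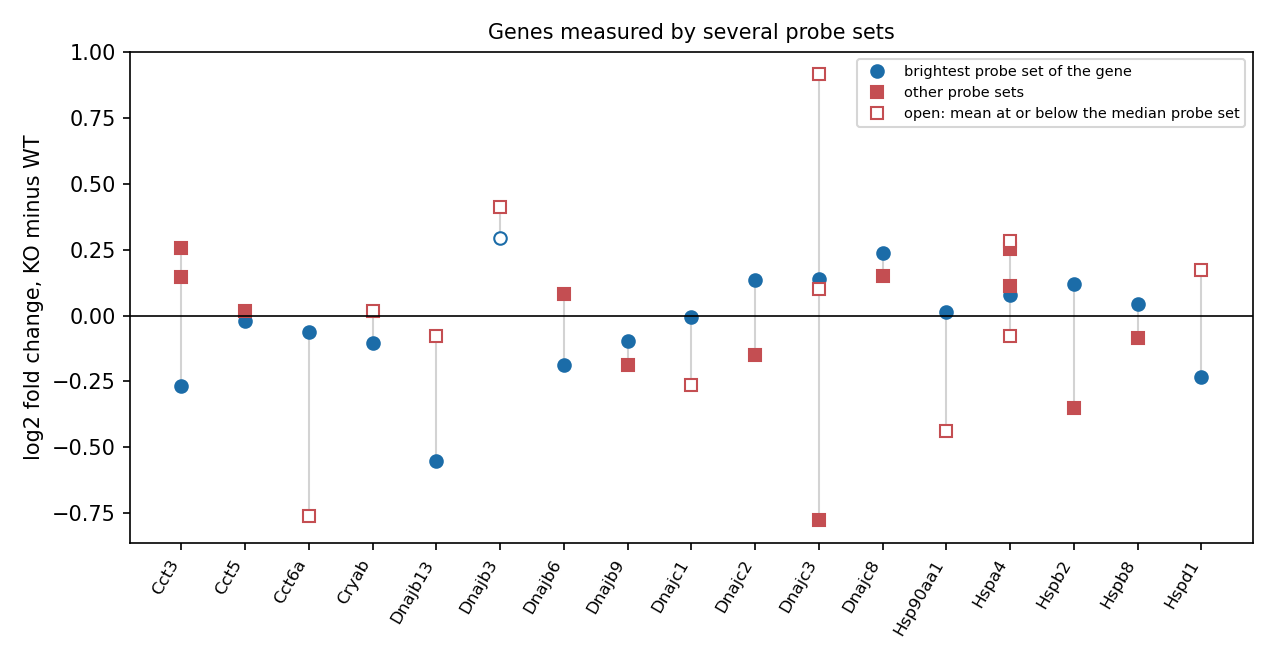
Log2 fold change (KO minus WT, y axis) of every probe set of the 17 genes measured by more than 1 set; circles mark the brightest set of a gene, squares the others, and open symbols a mean at or below that of the median probe set. The sets had the same sign for 6 genes and opposite signs for 11, with the widest range for Dnajc3 (-0.78 to 0.92).

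The mitochondrial chaperonin consists of Hspd1 (HSP60), which forms the barrel, and Hspe1 (HSP10), its lid. Hspd1 read 1195 and 1059 in the WT pools and 1077 and 847 in the KO pools, an overlapping range (-0.23 ± 0.15, interval -0.59 to 0.12), and its dim second set stood at 0.17 ± 0.34. Hspe1 read 711 and 589 in the WT pools and 675 and 613 in the KO pools (-0.01 ± 0.13). For 1 of the listed start sites of Hspd1, the genes share the promoter region printed above. Both genes were highest in WT replicate 1, but the lowest array was KO replicate 2 for Hspd1 and WT replicate 2 for Hspe1. Over the 6 mitochondrial members, which also include Hspa9, Dnaja3, Dnajc11 and Dnajc15, the median was -0.01.

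The cytosolic chaperonin CCT folds actin and tubulin. Of the 8 measured genes named Cct, 1 had a positive and 7 a negative log2 fold change (median -0.06), and 6 had an interval within 1.5-fold. Without KO replicate 2 the median was 0.02. Cct3 read 374 and 396 in the WT pools and 327 and 307 in the KO pools on its brightest set, lower in both KO pools (-0.27 ± 0.13, interval -0.58 to 0.05, limma adjusted p = 0.908). Its other sets went the other way, with 275 and 239 in the WT pools against 299 and 272 in the KO pools (0.15 ± 0.15), and 101 and 139 in the WT pools against 136 and 153 in the KO pools (0.25 ± 0.24). Cct4 read 786 and 696 in the WT pools and 576 and 763 in the KO pools (-0.15 ± 0.16). Cct7 read 1110 and 1035 in the WT pools and 1105 and 976 in the KO pools (-0.04 ± 0.11). Cct2, the positive one of the 8, read 203 and 298 in the WT pools and 275 and 273 in the KO pools (0.15 ± 0.21). Cct5, Cct6a, Cct8 and the dim Cct6b lay between -0.08 and -0.02. Tcp1, which encodes the first subunit of the same complex but has a symbol outside the rule, read 148 and 207 in the WT pools and 164 and 224 in the KO pools (0.12 ± 0.24). A dim second set for Cct6a stood at -0.76 ± 0.38, with both KO pools lower.

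The heat-inducible members, grouped by known induction and not by these data, had a median difference of 0.27 on the log2 scale between the WT pools and 0.28 between the KO pools. Between the genotypes it was 0.16, all without sign. The pool differences are between single arrays, which spread more than the means of 2 arrays behind the genotype difference. Of the 13 genes, 5 had a positive and 8 a negative log2 fold change (median -0.07), and 0 of the 13 had both KO pools above or below both WT pools, against 16.5% and 18.2% of all genes. For 9 of the 13 (69.2%) the highest reading came from WT replicate 1, against 24.2% of all genes. Over all 55 chaperone genes, these 13 included, the share was 38.2%. The 9 were Cryab, Hspa1a, Hspa1b, Hspa8, Hsp90aa1, Dnaja1, Dnajb1, Hspd1 and Hspe1. Hspa8 is counted among the 13 and the 9 although it is described above as the constitutive form. The count of 9 was made after the values had been seen. The median deviation from a gene's mean over the 4 arrays was, on the log2 scale, 0.13 and -0.06 in WT replicates 1 and 2 and -0.01 and 0.03 in KO replicates 1 and 2. WT replicate 1 read higher than WT replicate 2 for 11 of the 13. Without WT replicate 1 the median log2 fold change of these genes was 0.09. Of the heat-inducible genes with a heat shock element in their window, Hspa1a, Hspa1b, Dnaja1, Hspd1 and Hspe1 were highest in that array, whereas Hspb1, Hspb8 and Hsph1 were not. Of the other members with the element, Cct5 and Cct6a were highest there, whereas Cct2, Dnajb4, Dnajb6 and Dnajc10 were not. Among the heat-inducible genes whose window lacks it, Dnajb1 was highest in WT replicate 1 and Hspa4l was not. Other features of the same array moved with this pattern: slow-fibre markers were lowest there (summed level 19830, against 23840 to 29263 on the other arrays) and adipocyte markers highest (11348, against 6115 to 8595), as were fibroblast markers (10089, against 8525 to 9668). WT replicate 1 had the lowest reading for 7 of 10 slow-fibre markers and the highest for 5 of 7 adipocyte and 6 of 7 fibroblast markers, and none of these markers was listed at 0. Their part in the result was not tested.

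**Figure D3:**
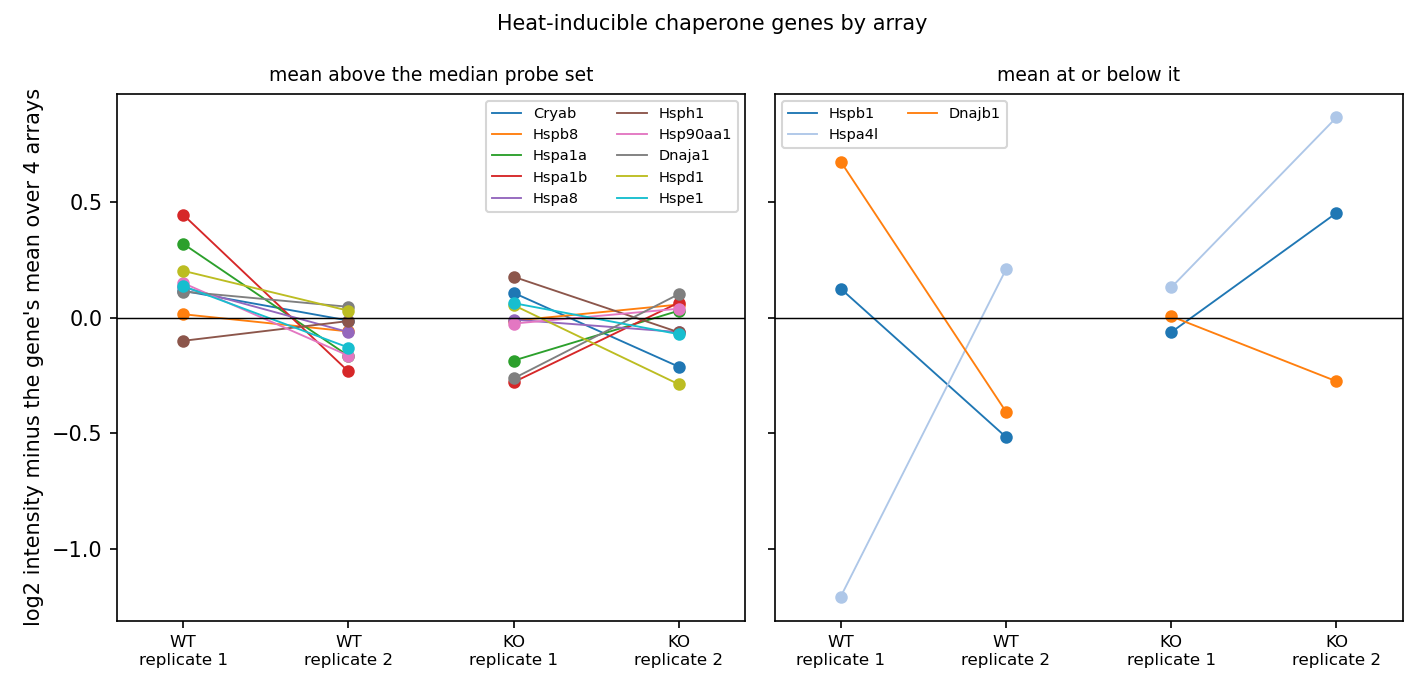
Log2 intensity minus the gene's mean over the 4 arrays (y axis) for the 13 heat-inducible genes on each array (x axis); each coloured line joins the pools of 1 genotype for 1 gene, with 10 genes above the median probe set on the left and the 3 dim ones, Hspb1, Hspa4l and Dnajb1, on the right. On the left, WT replicate 1 lies highest for 8 of the 10 genes, and the KO pools scatter around 0.

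Other genes of the folding machinery were taken from 7 lists of 88 genes, of which 66 were measured. Each was read on its brightest probe set only, and further sets of the same gene were not compared. Of these, 28 had a positive and 38 a negative log2 fold change (median -0.03), limma called 0 after adjustment, and 2 were higher and 6 lower in KO at an unadjusted p under 0.05 (12.1% of the 66, against 5.48% of all genes). The size rule was passed by 2 (3.03%, against 1.99% of all genes). Tbce, a tubulin cofactor, read 85.8 and 75.1 in the WT pools and 141 and 150 in the KO pools (0.76 ± 0.23), and Tomm40, the pore of the mitochondrial outer membrane, read 130 and 105 in the WT pools and 66.9 and 45.0 in the KO pools (-0.92 ± 0.31). Neither passed adjustment (limma adjusted p = 0.813 and 0.846).

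The lists closest to the heat shock genes had medians between -0.11 and 0.06. Of 3 measured heat shock factor genes and regulators, 2 were positive (median 0.02), with Hsbp1, which binds heat shock factor trimers, at 0.25 ± 0.18 and Hsf4 at -0.36 ± 0.35. Among HSP70 co-chaperones 2 were positive and 9 negative (median -0.11). Bag6, which handles membrane proteins that fail to insert, stood at -0.35 ± 0.18 and Bag3, the Hspb8 partner, at -0.15 ± 0.11, each lower in both KO pools. These values come from the brightest of 4 probe sets for Bag6 and of 2 for Bag3. Of the 11 measured co-chaperones these 2 alone had both KO pools lower, against 18.2% of all genes. HSP90 co-chaperones and immunophilins were 5 positive and 3 negative (median 0.06), with Fkbp8 at -0.26 ± 0.16 and Ppid at 0.19 ± 0.14. Other cytosolic folding helpers were 4 positive and 6 negative (median -0.05), with Tbca, a tubulin cofactor, at -0.28 ± 0.18.

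Of 16 endoplasmic reticulum folding enzymes and lectins, 7 were positive and 9 negative (median -0.11). Limma gave an unadjusted p under 0.05 for 4 of the 16, against 5.48% of all genes. Both KO pools lay below both WT pools for 6 and above them for 2, against 18.2% and 16.5% of all genes. Erp29, a secretory folding factor, read 318 and 302 in the WT pools and 203 and 231 in the KO pools on the brighter of its 2 sets (-0.49 ± 0.15, limma adjusted p = 0.813). Uggt1, which checks glycoprotein folding, stood at -1.13 ± 0.45 from a dim set. Ppib, a prolyl isomerase of collagen folding, stood at -0.39 ± 0.16, and Pdia3, a disulfide isomerase, at 0.50 ± 0.20. Of 9 regulators of the unfolded protein response, 4 were positive and 5 negative (median -0.03). Xbp1, the transcription factor that drives endoplasmic reticulum chaperone genes, read 540 and 502 in the WT pools and 401 and 427 in the KO pools (-0.32 ± 0.12, limma adjusted p = 0.862), and Herpud1 stood at -0.09 ± 0.10. Beside these, among the endoplasmic reticulum members, Hspa5 and Hsp90b1 stood at 0.02 and 0.04 and Dnajc10 at 0.27. Dnajb9 stood at -0.10 on its brightest set and at -0.19 on its other set, which was lower in both KO pools. Dnajb11 stood at -0.02, and Dnajc1 at -0.005 and, on a dim set lower in both KO pools, at -0.26. Dnajc3 gave no direction. The pancreas markers named above were higher in KO over the same arrays, for example Ctrb1, chymotrypsinogen, which read 589 and 661 in the WT pools and 3467 and 1370 in the KO pools, and their part in these values was not tested. Of 9 mitochondrial proteases and import helpers, 4 were positive and 5 negative (median -0.01). Timm44, which anchors Hspa9 at the import pore, read 557 and 632 in the WT pools and 419 and 381 in the KO pools, lower in both KO pools (-0.56 ± 0.13, limma adjusted p = 0.803).

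**Figure D4:**
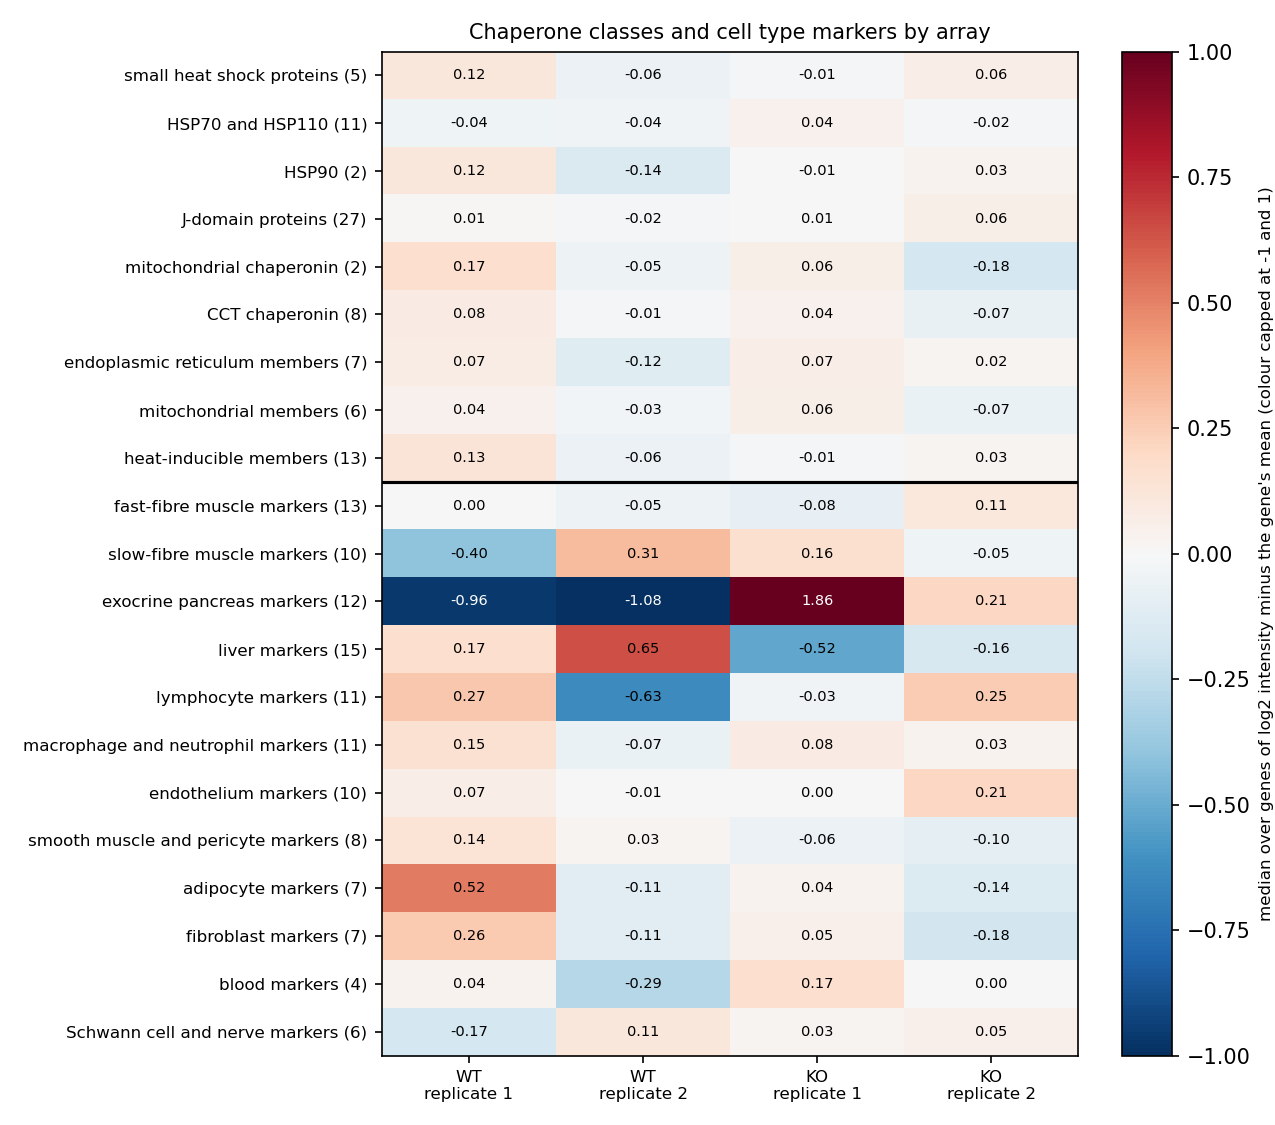
Median over genes of the log2 intensity minus each gene's mean over the 4 arrays, for the chaperone classes (upper rows) and 12 cell type marker lists (lower rows) on each array (columns), with the number of genes in brackets; the value is printed in each cell and the colour is capped at -1 and 1. The chaperone classes stay between -0.18 and 0.17, whereas the pancreas markers range from -1.08 to 1.86 and the slow-fibre markers from -0.40 to 0.31.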

How the data were processed

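Per the labels, total RNA of pooled muscle was biotin-labelled for 1-colour arrays. The deposited table holds 1 linear intensity per probe set and array, which the authors had scaled between arrays (the mean without the outer 2% was about 200.2 on each). How probes were summarised, corrected for background or called present is not stated in those sources, and no further scaling was applied. Of 12488 probe sets, 66 controls were left out. Probe sets were named by the platform annotation (1 symbol for 10833, several for 396, none for 1193), and symbols updated through RefSeq identifiers (10817 found) gave the same 78 members. Of the 55 genes, 38 had 1 probe set and 17 several, and 46 had a set with a mean above the median probe set. All 12422 probe sets were fitted, with no filter on level, with limma 3.58.1 (R 4.3.3; lmFit, eBayes with an intensity trend) on log2(intensity + 14), two-sided, with Benjamini-Hochberg adjustment at 0.05. This scale understates changes of dim sets. Errors are SE for log2 fold changes and SD for means. The method was tested on simulated data. The number of arrays limits the precision.

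All members may be named. Array values are given for the member of each class with the highest mean, the 3 of each class with the smallest p and those past the size rule. Of each folding list, the 2 genes with the smallest p and those past the size rule are named. Beyond this rule, Ppib and Pdia3 are named as the other genes of their list at an unadjusted p under 0.05 (limma). Tcp1 is named beside the Cct genes. Hspa1a, Hspa1b, Hspa5, Hspa9, Dnajc13, Dnajb5 and Dnajc5 were added after their values were seen. The members and lists were chosen with earlier results of these data known. Alternatives were the pseudocount, the scaling, a filter on dim sets, the variance model, the replicate block, the probe set per gene and leaving out each array. Promoter windows were read from RefSeq (GRCm38.p6).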

Additional observations from a re-analysis of the deposited data

How the results depend on the processing

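No member probe set was called under any setting run, the smallest adjusted p of a named probe set being 0.738 with an array left out and 0.689 otherwise (limma). The labels do not say that replicate numbers pair the pools, and the deviations of same-numbered pools correlated at 0.003 over all probe sets. With the replicate block 0 members were called and 3 were at an unadjusted p under 0.05 (limma). Without the block 2 members were (2.56%, against 5.43% of all probe sets). No share over all probe sets was taken for the count of 3. The same holds for the counts below among brighter probe sets only and with 4 times the pseudocount. For the interval counts with an array left out, no share over all genes was taken. These counts therefore cannot be read as high or low. That count of 2 was 1 among brighter probe sets only and 1 to 6 with an array left out. The size rule gave 1 member, 0 with 4 times the pseudocount and 1 to 3 with an array left out. The count of genes with an interval within 1.5-fold, 31, was 18 to 21 with an array left out, which also leaves fewer samples for each interval. With an array left out, the median log2 fold change of all chaperone genes, the members alone, ranged from -0.070 to 0.040. Of the class medians, that of HSP70 and HSP110 then ranged from -0.042 to 0.075 and that of CCT from -0.11 to 0.024. The median of endoplasmic reticulum members ranged from -0.066 to 0.14 and that of heat-inducible members from -0.17 to 0.087. Among brighter probe sets only, the HSP70 and HSP110 median was -0.024. The 9 heat-inducible genes highest in WT replicate 1 were 9 after quantile normalization and 8 after centring on array medians, both chosen after seeing the data. Leaving out an array changed the sign of the log2 fold change in 21 of 120 values, from 15 of the 30 named probe sets. These ranged from -0.11 to 0.41 for Cct2, -0.35 to 0.044 for Cct4, -0.13 to 0.044 for Cct7, -0.26 to 0.056 for Cryab, -0.087 to 0.045 for Dnaja3, -0.14 to 0.17 for Hsp90aa1, -0.066 to 0.14 for Hsp90b1, -0.17 to 0.027 for Hspa8, -0.14 to 0.12 for Hspe1, -0.0058 to 0.23 for Hsph1, -0.40 to 0.087 for Hspa1a, -0.55 to 0.13 for Hspa1b, -0.11 to 0.15 for Hspa5, -0.67 to 0.57 for Dnajb5 and -0.64 to 0.0071 for Dnajc5. In the other settings 1 of 207 values changed sign, Hspe1 at 9.6e-05 after quantile normalization. The cause of these differences was not tested. Dim probe sets, 20 of the 78, lie where the pseudocount compresses differences.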
